A study of Rattus norvegicus with 10 samples.

Results

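The genes described here mark the basal layer of the mammary epithelium, whose myoepithelial cells contract, and were taken as a list of 10 symbols. They comprised the basal keratins Krt5, Krt14 and Krt17, the basal epithelial gene Trim29, the oxytocin receptor Oxtr, and the smooth muscle contractile genes Acta2, Myh11, Cnn1, Tagln and Mylk. A gene was measured by the probe sets whose only gene symbol in the platform annotation was that gene. Under this rule 9 of the 10 genes had 1 probe set each, out of 10411 genes named by a probe set of their own, and Krt17 had none. The array held 15866 probe sets that were not controls. A further 3 probe sets named Acta2 together with Actc1, the cardiac actin, and were left out by the same rule.

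The samples were whole mammary glands, taken from female SD rats on postnatal day 21, and the RNA of each sample was hybridised to 1 array. Exposure ran from gestation day 4 to weaning and was to AIN-93G, a purified rodent diet, made with casein or with soy protein isolate. The labels name no other treatment, and no litter or batch. There were 5 casein arrays, numbered 10, 18, 20, 6 and 7, and 5 soy arrays, numbered 147, 149, 155, 157 and 159. Per the labels, RNA was pooled and several cRNA targets were made from a pool. Whether each array was 1 animal is therefore unclear, and p-values measure only the spread between these arrays, which may be technical in part. The values were MAS5 signals in log2 units, where a difference of 1 is a doubling. Tests were run on the 9520 probe sets that averaged at least 7.47 over the 10 arrays, a signal of 177. Of the 9 measured genes 7 passed, while Krt14 and Oxtr fell below it and are given as values.

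Mammary ducts have an inner luminal layer, which makes milk in the mature gland, and an outer basal layer resting on the basement membrane. Basal cells hold intermediate filaments of keratin 5 paired with keratin 14 or 17, and those that have become myoepithelial also build a smooth muscle apparatus of actin, myosin and their regulators. Oxytocin binds its receptor on these cells, calcium rises, myosin light chain kinase is activated, and the cell shortens to press milk from the alveoli. None of these genes is peculiar to the gland. Smooth muscle of vessel walls expresses the contractile genes, and basal keratinocytes of skin and hair follicles express the basal keratins. In whole tissue, fewer cells of a type and less RNA per cell cannot be told apart.

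Several arrays stood apart in markers of other tissues. The mean log2 signal of 19 skeletal muscle genes was highest in casein 6, at 12.95. Soy 149 and soy 157 both reached 12.34 and soy 147 reached 11.44, against 5.72 to 7.44 in the other arrays. The mean of 12 lymph node and lymphocyte genes was 6.59 in casein 6 and 6.42 in soy 149, against 9.35 to 10.17 elsewhere. The mean of 10 epidermis and hair follicle genes was 8.90 in soy 147 and 6.23 to 6.96 in the other arrays. Luminal epithelial markers, 14 genes such as Krt8, Krt18 and Epcam, averaged 5.37 in casein 6, 5.41 in soy 159 and 6.24 in soy 149, and reached 8.87 in casein 7. The part that these tissues had in the values below was not tested except where a covariate or a left-out array is named.

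The proximal promoters of 4 of the genes are printed, and that of Oxtr was searched but is not printed. Whether these genes share regulation was not tested. Each is the 250 bases before the transcription start from RefSeq, build GRCr8, 5′ to 3′ on the gene's strand, and 5 of the 10 genes had an entry. Acta2 lies at chr1:241172504-241172753 on the minus strand, Mylk at chr11:79498575-79498824 on the minus strand, Cnn1 at chr8:28908187-28908436 on the plus strand and Krt5 at chr7:134730570-134730819 on the minus strand. Capitals mark the CArG-like elements of Acta2, near matches to the CArG box that serum response factor binds in muscle genes.
Acta2: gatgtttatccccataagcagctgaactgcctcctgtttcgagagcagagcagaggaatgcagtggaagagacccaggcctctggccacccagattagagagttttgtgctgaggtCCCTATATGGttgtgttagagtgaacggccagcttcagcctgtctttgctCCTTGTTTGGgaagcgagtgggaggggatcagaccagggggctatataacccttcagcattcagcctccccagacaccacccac
Mylk: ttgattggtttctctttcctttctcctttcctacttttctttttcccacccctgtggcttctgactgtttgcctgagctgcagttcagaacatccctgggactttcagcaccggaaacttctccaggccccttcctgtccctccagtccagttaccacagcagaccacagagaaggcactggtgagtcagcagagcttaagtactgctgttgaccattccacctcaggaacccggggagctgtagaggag
Cnn1: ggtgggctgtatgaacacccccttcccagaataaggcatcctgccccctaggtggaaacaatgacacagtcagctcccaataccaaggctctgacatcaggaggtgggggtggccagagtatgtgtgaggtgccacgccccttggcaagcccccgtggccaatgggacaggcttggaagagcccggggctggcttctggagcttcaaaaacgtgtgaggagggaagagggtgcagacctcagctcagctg
Krt5: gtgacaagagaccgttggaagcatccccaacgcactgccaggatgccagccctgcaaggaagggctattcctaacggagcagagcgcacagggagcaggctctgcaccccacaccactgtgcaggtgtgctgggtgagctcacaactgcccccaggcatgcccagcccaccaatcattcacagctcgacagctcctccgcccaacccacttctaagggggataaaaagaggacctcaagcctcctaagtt
The 2 CArG-like elements of Acta2 began 134 and 84 bases before the start and each had at most 1 exchange in the core of the CArG box. Such an element, searched on both strands, was present in 8.08% of 33469 rat promoters of the same length and in none of the other 4 with an entry. The strict CArG box was present in 1.5% of all promoters and in none of the 5. The sequence GCCNNNGGC, the AP-2 element, was present in Acta2 and Cnn1 and in 12.6% of all promoters, not in Krt5. The sequence TGANTCA, the AP-1 element, was present in Mylk and in 6.34% of all promoters. The sequence TATAAA was present in 12.9% of all promoters and in none of the 5. All were searched on both strands, and the matches describe the letters only.

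No tested gene of the list passed the test between the diets. The comparison sets soy protein against casein exposure in the gland at weaning. With limma and Benjamini-Hochberg adjustment, 0 of the 7 tested genes passed an adjusted p of 0.05, against 0 of 9520 probe sets (0%), and the smallest adjusted p on the array was 0.98. At an unadjusted p under 0.05 none of the 7 was called in limma, where 4.55% of all tested probe sets were, and without the filter Oxtr was the 1 gene of 9 called, where 5.31% were. The signals of the diets overlapped for all 9 measured genes, and without the filter 0.996% of all probe sets had diets that did not overlap. The median soy minus casein difference was -0.059 over the 4 measured basal genes and -0.157 over the 5 contractile genes, against -0.0103 over all tested probe sets. Both medians turned sign with single arrays left out, the basal one running from -0.87 without soy 147 to 0.53 without soy 159 and the contractile one from -0.36 without casein 6 to 0.047 without soy 159. The within-diet SD was larger than the difference between the diets for the keratins (1.76 for Krt5 and 2.26 for Krt14), for Trim29 (1.18) and for the contractile genes (0.27 to 0.79). For Oxtr it was smaller, 1.05 against a difference of -1.86.

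**Figure D1:**
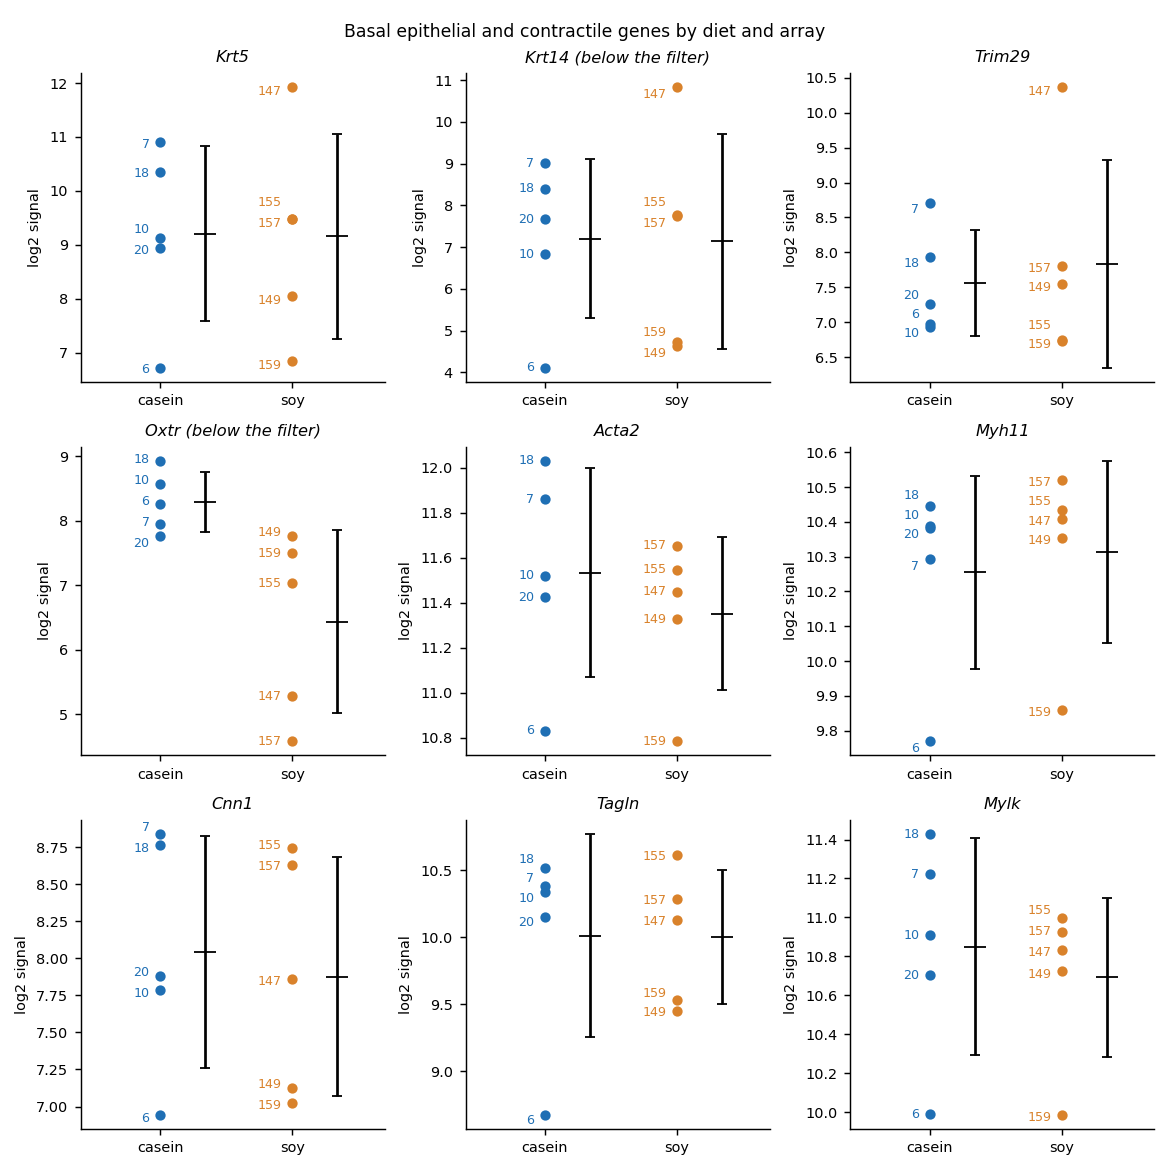
The log2 MAS5 signal of each of the 9 measured genes is plotted for each array by diet, with array numbers beside the points and the mean and SD of 5 arrays as the bar at the right of each diet. Casein 6 and soy 159 were the lowest arrays of their diets for Krt5, Acta2, Myh11, Cnn1 and Mylk, soy 147 was the highest for Krt5, Krt14 and Trim29, and the diets overlapped in every panel.

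Krt5, the type II keratin of basal cells, had log2 signals of 9.13, 10.36, 8.94, 6.72 and 10.90 in casein arrays 10, 18, 20, 6 and 7. In soy arrays 147, 149, 155, 157 and 159 they were 11.92, 8.05, 9.49, 9.48 and 6.84. The highest and the lowest soy array therefore lay on either side of most casein arrays, and the diets overlapped almost completely. The means were 9.21 ± 1.62 (SD, n = 5) with casein and 9.16 ± 1.90 (SD, n = 5) with soy. The difference was -0.055 (SE 0.93), with an adjusted p of 0.9995 in limma, and an exact permutation test gave a two-sided p of 0.976. The signal spanned 36.8-fold over the 10 arrays, a wider range than that of 99.4% of tested probe sets. Leaving out soy 147 moved the Krt5 difference to -0.75, and leaving out soy 159 moved it to 0.52.

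Krt14, the type I partner of keratin 5, read 6.82, 8.40, 7.67, 4.11 and 9.01 in the casein arrays in the same order. In the soy arrays it read 10.83, 4.63, 7.77, 7.73 and 4.74. Its pattern repeated that of Krt5, with soy 147 highest, casein 7 and casein 18 next, and casein 6, soy 149 and soy 159 at the bottom. The difference between diets was -0.063 (SE 1.21) on means of 7.20 ± 1.91 and 7.14 ± 2.57 (SD, n = 5 each), and the range was 105-fold. Leaving out soy 147 moved the difference to -0.99 and leaving out soy 149 moved it to 0.56. The 3 low arrays lay well under the filter, where MAS5 values are least precise, so the size of this range is uncertain at its lower end.

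Trim29, a tripartite motif protein found in basal cells of stratified and glandular epithelia, read 6.93, 7.93, 7.26, 6.97 and 8.71 in the casein arrays. In the soy arrays it read 10.37, 7.55, 6.75, 7.80 and 6.73. Soy 147 stood far above the other 9 arrays, which lay within 2 log2 units of each other. The soy minus casein difference was 0.28 (SE 0.63, limma adjusted p = 0.9995, exact permutation p = 0.778), and without soy 147 it was -0.35. Soy 147 was also the array with the highest epidermis markers, and 6 of the 10 measured genes of that list were highest there. Sprr1a, a cornified envelope precursor, read 12.91 in soy 147, Calml5, a calcium-binding protein of differentiating keratinocytes, 10.24, Dmkn, a secreted protein of the upper epidermis, 10.18, and Lgals7, the galectin of stratified epithelia, 11.88. Krt1, Krt10, Loricrin and Krtdap, of the same list, were not highest in that array. Lgals7 also followed Krt5 over the 10 arrays (r = 0.983), so the mean of this list was not independent of the Krt5 signal. The summed signal of the list ran from 1144.3 to 2260.8 in casein arrays and from 1055.7 to 15848.8 in soy arrays, and no marker was at the floor of 1. With the mean of these markers as a covariate the Trim29 difference was -0.47 and that of Krt5 was -0.92, neither past the threshold in limma.

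Oxtr, the receptor through which oxytocin triggers contraction, showed the widest gap between diets of the list, although it too fell short of the test across all probe sets. It read 8.57, 8.93, 7.76, 8.26 and 7.95 in the casein arrays and 5.29, 7.77, 7.04, 4.58 and 7.50 in the soy arrays. All 5 soy arrays were below the casein mean, and soy 149 and casein 20 touched at 7.77 and 7.76, so the diets overlapped by that pair. The means were 8.29 ± 0.47 and 6.44 ± 1.42 (SD, n = 5 each). The difference of -1.86 (SE 0.57) was the 4th lowest of 15866 probe sets, of which 0.649% lay 1 or more below casein. Fitted without the filter, its adjusted p in limma was 0.862 with an unadjusted p of 0.00764, which ranked 126 among 15866. The exact permutation test gave a two-sided p of 0.0159, and 6.12% of all probe sets had an exact p under 0.05.

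The gap rested partly on soy 147 and soy 157, whose Oxtr signals were 39.1 and 24.0, far under the filter. Leaving out soy 157 gave a difference of -1.39 and leaving out soy 149 gave -2.19, the ends of the range over left-out arrays. The mean of the luminal markers as a covariate gave -2.01, that of muscle -1.58, that of lymph node -1.84 and that of epidermis -1.43. The other basal genes were highest in soy 147 and the contractile genes were near or above their means in soy 157, so the arrays with low Oxtr were not those with low basal or contractile signal.

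**Figure D2:**
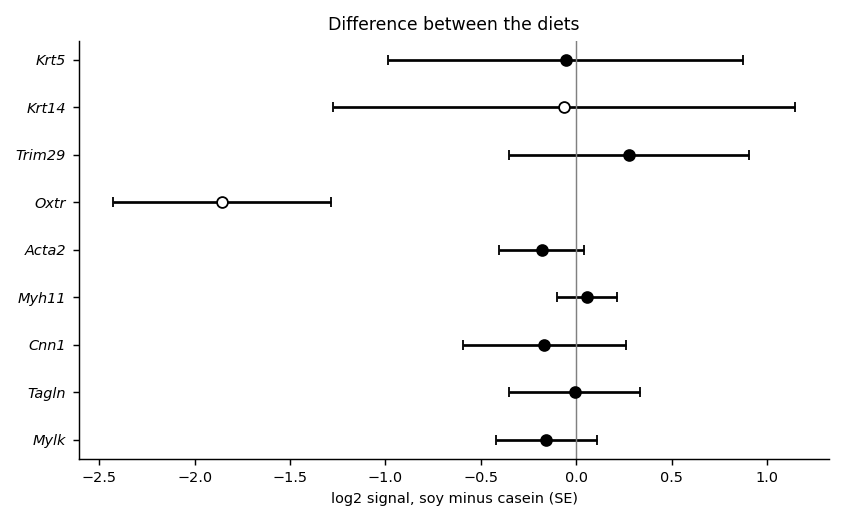
The soy minus casein difference in log2 signal is plotted for each measured gene, with bars of 1 SE from the fit over 10 arrays; filled points were tested and open points fell below the filter. The bars of Krt5, Krt14, Trim29, Myh11, Cnn1, Tagln, Mylk and Acta2 include 0, and Oxtr lies at -1.86.

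Acta2, smooth muscle alpha actin and the main thin filament protein of myoepithelial cells, read 11.52, 12.03, 11.43, 10.83 and 11.86 in the casein arrays. In the soy arrays it read 11.45, 11.33, 11.55, 11.65 and 10.78. Casein 6 and soy 159 were the low arrays of their diets and the other 8 lay between 11.33 and 12.03. The means were 11.53 ± 0.46 and 11.35 ± 0.34 (SD, n = 5 each), a difference of -0.18 (SE 0.22, limma adjusted p = 0.992, exact permutation p = 0.508). It spanned only 2.37-fold over arrays in which Krt5 spanned 36.8-fold.

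Myh11, the smooth muscle myosin heavy chain, was the steadiest of the list. It read 10.39, 10.45, 10.38, 9.77 and 10.29 in the casein arrays and 10.41, 10.35, 10.43, 10.52 and 9.86 in the soy arrays. Apart from casein 6 and soy 159 every array was between 10.29 and 10.52. Its difference was 0.058 (SE 0.16, limma adjusted p = 0.9995), and its 1.68-fold range was wider than that of 52.3% of tested probe sets, close to the middle of the array.

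Mylk, the kinase that phosphorylates the myosin light chain to start contraction, read 10.91, 11.43, 10.70, 9.99 and 11.22 in the casein arrays. In the soy arrays it read 10.83, 10.72, 11.00, 10.92 and 9.99. Casein 18 was highest and casein 6 and soy 159 lowest, as for Acta2. The difference was -0.16 (SE 0.26, limma adjusted p = 0.9925).

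Cnn1, calponin, which binds actin and restrains the myosin ATPase, read 7.79, 8.76, 7.88, 6.94 and 8.84 in the casein arrays and 7.86, 7.13, 8.74, 8.63 and 7.02 in the soy arrays. Tagln, transgelin, an actin cross-linking relative of calponin, read 10.33, 10.51, 10.15, 8.67 and 10.38, and with soy 10.13, 9.45, 10.61, 10.28 and 9.53. For both genes soy 149 joined casein 6 and soy 159 among the low arrays, as it had for the keratins. The differences were -0.17 (SE 0.43) for Cnn1 and -0.0080 (SE 0.34) for Tagln, and limma gave both genes an adjusted p of 0.9995. Their ranges were 3.71-fold and 3.84-fold, wider than those of 95.3% and 95.6% of tested probe sets.

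Keratin and contractile signals could be separated array by array by setting each gene against its own mean over the 10 arrays. In casein 6 the mean of Krt5 and Krt14 was 2.76 below and the mean of the 5 contractile genes 0.85 below, written as -2.76 and -0.85. In soy 159 the values were -2.39 and -0.66, and in soy 149 they were -1.83 and -0.30. Both groups of genes were thus low in casein 6 and soy 159, with the keratins further below their means. In soy 149 the contractile value came from Cnn1 and Tagln, while Acta2 and Mylk were near their means and Myh11 was above its own. Casein 18 stood at 1.20 and 0.54 and casein 7 at 1.78 and 0.43, so both groups were high there. Casein 10, casein 20, soy 155 and soy 157 stayed within 0.45 of the mean in both groups. Soy 147 was the exception, with keratins at 3.20 and contractile genes at 0.04.

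**Figure D3:**
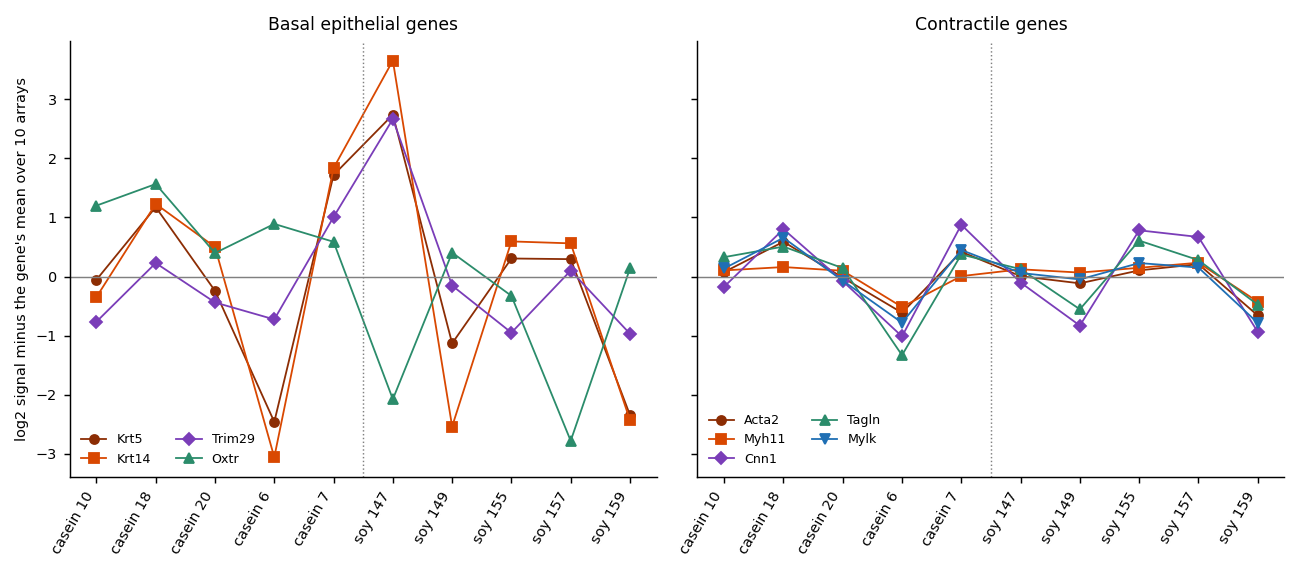
Each line gives the log2 signal of 1 gene minus its own mean over 10 arrays, with basal genes on the left, contractile genes on the right, and the dotted line between the casein and the soy arrays. Keratins and all 5 contractile genes were low in casein 6 and soy 159, keratins, Cnn1 and Tagln were low in soy 149, soy 147 was high for Krt5, Krt14 and Trim29 with contractile genes near 0, and Oxtr was low in soy 147 and soy 157.

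Correlations over the 10 arrays were computed for the 21 pairs of the 7 tested genes, with permutation tests and Benjamini-Hochberg adjustment over the pairs, and 16 pairs passed 0.05. The share of pairs passing among all tested probe sets was not computed, so the count is not shown to be particular to these genes. All 10 pairs of contractile genes passed, with Pearson r from 0.711 to 0.989. Acta2 and Mylk were closest, with r = 0.989 and rho = 0.976 (adjusted permutation p 0.00042 and 0.00084), and r stayed at 0.968 without soy 159 and casein 6. Acta2 and Cnn1 had r = 0.889 and rho = 0.915 (adjusted permutation p 0.000525 and 0.00735), and r = 0.804 without those arrays. The pairs of Myh11 were different in kind. Acta2 and Myh11 had r = 0.832 and rho = 0.697 (adjusted permutation p 0.0156 and 0.0597), but r was 0.105 without soy 159 and casein 6, and over the 4 pairs of Myh11 it lay between 0.0455 and 0.313. These relations therefore rested on those 2 arrays.

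Krt5 varied with each of the 5 contractile genes. For Krt5 and Acta2 r was 0.795 and rho 0.782 (adjusted permutation p 0.0151 and 0.0252), rising to 0.958 without soy 147 and casein 6, the arrays at the ends of Krt5. For Krt5 and Mylk r was 0.808 and rho 0.782 (adjusted permutation p 0.0144 and 0.0252), and 0.940 without them. The other 3 contractile genes had r with Krt5 of 0.732 to 0.752, all with an adjusted permutation p under 0.05 by Pearson, and Cnn1 also by Spearman. Trim29 passed with Krt5, at r = 0.798 and rho = 0.697 (adjusted permutation p 0.00813 and 0.0597), and not with any contractile gene, where r was 0.241 to 0.387. Computed on deviations from each diet's mean, with exact permutation within diets, the same number of pairs, 16, passed.

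Krt14 and Oxtr were added after the data were seen, which made 36 pairs. Krt5 and Krt14 had r = 0.969 with an adjusted permutation p of 0.00036. Oxtr passed with no gene of the list, and its r ran from -0.46 with Trim29 to -0.0032 with Mylk. Oxtr therefore did not follow the other genes of the list across these arrays. Which cells of the whole gland gave its signal was not tested. Without casein 6 only 7 of the 21 pairs of tested genes passed, as also without soy 159, and 9 passed by Spearman in place of Pearson.

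**Figure D4:**
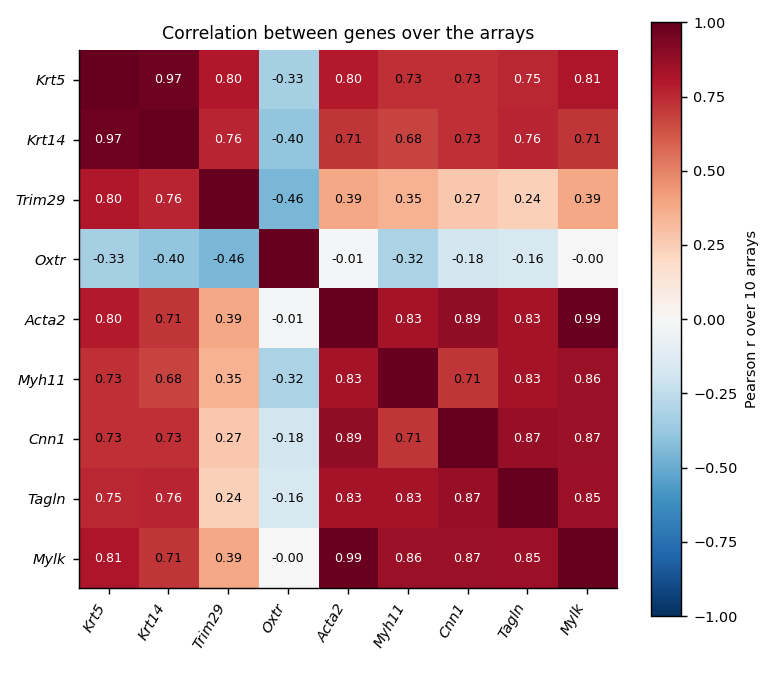
Pearson r over 10 arrays is shown for every pair of the 9 measured genes on a colour scale from -1 to 1, with the value in each cell. The 5 contractile genes form a block at 0.71 or above, Krt5 and Krt14 correlate with them at 0.68 to 0.81, and Oxtr is at or below 0 with every other gene.

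Marker lists of other cell types of the tissue were set beside these genes. Of the 6 lists compared, which did not include the muscle and lymph node lists, the luminal epithelial markers had the most relations that passed. Of 54 relations between the 9 measured genes and 6 marker lists, 8 passed a Benjamini-Hochberg adjusted permutation p of 0.05 by Pearson and 2 by Spearman, and 6 of the 8 were with the luminal list. The share passing among all tested probe sets was not computed for these relations either. Krt5 had r = 0.948 and rho = 0.952 (adjusted permutation p 0.00378 for each), and 0.871 without casein 6 and soy 159. Acta2 had r = 0.885 and rho = 0.794 (adjusted permutation p 0.0139 and 0.0728), and 0.645 without those arrays. Krt14, Mylk, Cnn1 and Tagln also passed by Pearson, at 0.839 to 0.905. Myh11 had r = 0.763 and rho = 0.479 (adjusted permutation p 0.0608 and 0.305), and -0.141 without casein 6 and soy 159. Trim29 had r = 0.616 with the luminal list and was closer to the epidermis list. There r was 0.876 and rho 0.758 (adjusted permutation p 0.0585 and 0.0814), and r was 0.532 without soy 147 and soy 157. Oxtr had r = -0.188 with the luminal list and 0.539 with the adipocyte list, neither passing. The summed luminal signal ran from 1079.8 to 13571.5 in casein arrays and from 1194.9 to 8276 in soy arrays, and 11 of the 14 genes were lowest in casein 6 or soy 159.

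Vessel markers did not follow the contractile genes. The mean of 9 endothelial genes stayed between 9.64 and 10.05 on all 10 arrays, and that of 10 pericyte and vessel wall genes between 9.43 and 9.93, while the contractile mean ran from 9.24 to 10.64. The 5 contractile genes had r from -0.513 to 0.0536 with the endothelial list, and none passed. With the pericyte list Tagln had r = -0.808 and rho = -0.733 (adjusted permutation p 0.0212 and 0.0825), and -0.651 without soy 155 and casein 6, and the other 4 contractile genes had r of -0.76 to -0.547, none passing. In casein 6 and soy 159, where Acta2, Cnn1 and Mylk were lowest, the endothelial mean was 9.75 and 9.77. Summed endothelial signal ran from 8315.9 to 9156.3 with casein and from 8515.4 to 10303.7 with soy, summed pericyte signal from 9726.1 to 13061.7 and from 9921.2 to 12872.8, and no marker of either list was at the floor. With the fibroblast list Tagln had r = -0.818 and rho = -0.723 (adjusted permutation p 0.0212 and 0.0825), and no gene passed with the epidermis or adipocyte list. The muscle and lymph node lists were left out of these relations, because the arrays fell into separate clusters there. Which cells gave the contractile signal was not tested in this whole tissue.

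**Figure D5:**
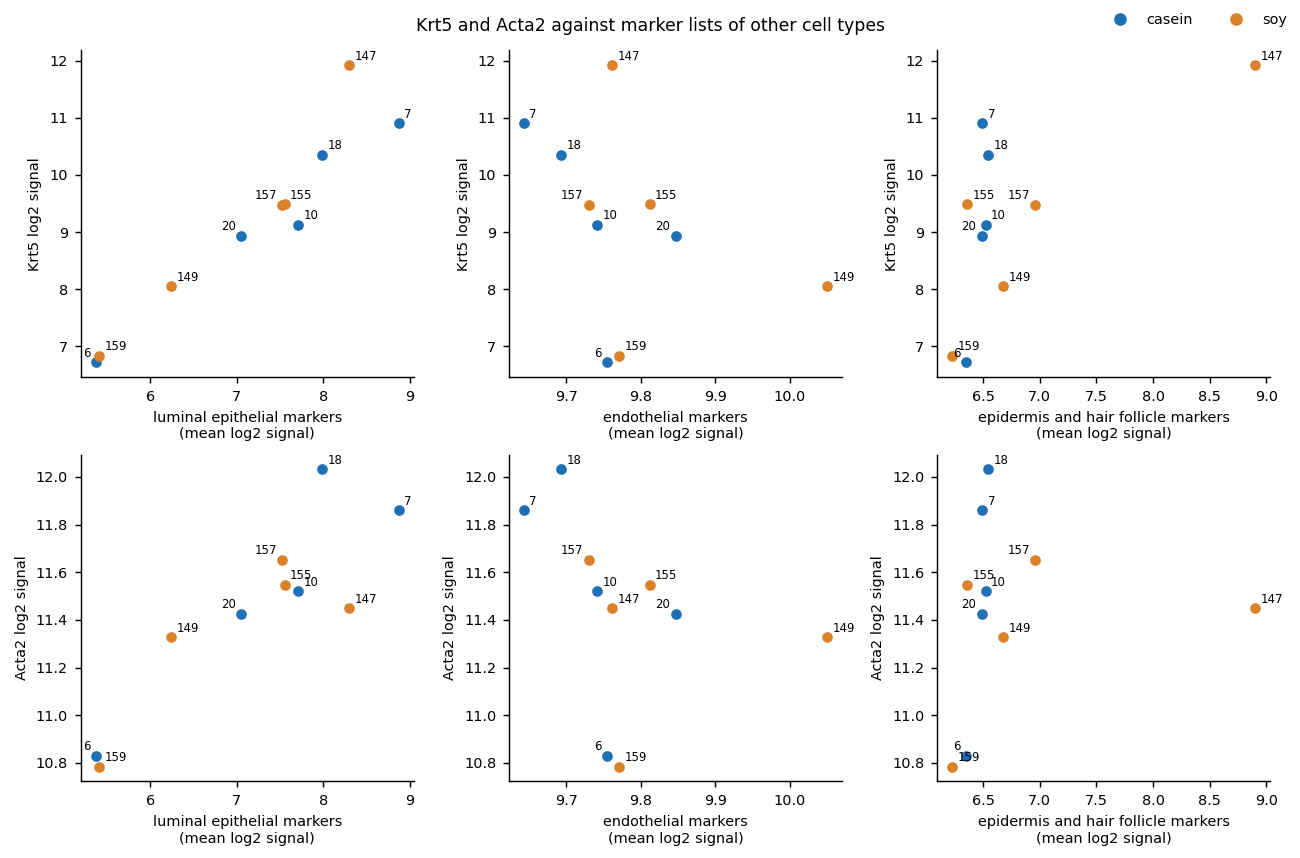
Krt5 (top row) and Acta2 (bottom row) log2 signals are plotted against the mean log2 signal of luminal, endothelial and epidermis markers, 1 point per array, with array numbers beside the points. Both genes rise with luminal markers, with r of 0.948 and 0.885, neither rises with endothelial markers, and soy 147 stands apart on the epidermis axis at 8.90.

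The genes most like Krt5 across the 10 arrays, among 7144 ranked by Pearson r, were Fxyd3 (0.993), a regulator of the sodium pump in epithelia, Lgals7 (0.983), Smarcc1 (0.963), a chromatin remodelling subunit, and S100a14 (0.961). Next came Krt15 (0.961), a basal keratin, Ptprf (0.940), Sdc1 (0.937), a heparan sulphate proteoglycan of epithelia, Tpm1 (0.935), a tropomyosin, Krt19 (0.935), a luminal keratin, and Lsr (0.933), a protein of tricellular junctions. Genes were ranked against Krt5 alone because Krt14 was under the filter and Krt17 had no probe set. The genes most like the contractile genes were led by Actg2 (0.971), the enteric smooth muscle actin, and also held Tpm2 (0.945) and Myl9 (0.924), further parts of the smooth muscle filaments. The milk protein genes Csn1s1 (0.962) and Lalba (0.951) and the lipid droplet gene Plin2 (0.960) were in the same 10, with Elavl1 (0.955), Cct8 (0.948), Egr2 (0.943) and Igfbp2 (0.933). These coefficients describe the arrays, which share the low signals of casein 6 and soy 159, and carry no test.

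Of 27 other basal epithelial genes 17 had a probe set and 14 were tested, and 0 passed in limma. The 2 at an unadjusted p under 0.05 were Mme and Itgb4, in opposite directions, where 4.55% of all tested probe sets were called. The soy minus casein difference was positive for 7 of the 17 and negative for 10, with a median of -0.0943. Mme, the membrane endopeptidase CD10 of myoepithelial and stromal cells, averaged 9.43 ± 0.28 with casein and 8.94 ± 0.26 with soy (SD, n = 5 each), a difference of -0.49 with an adjusted p of 0.98 in limma. Itgb4, the integrin of hemidesmosomes, averaged 9.49 ± 0.27 and 9.91 ± 0.39 (SD, n = 5 each), a difference of 0.42 with the same adjusted p. Egfr, a growth factor receptor, differed by -0.45 and Igfbp5, a binding protein for insulin-like growth factors, by -0.19. Tp63, the transcription factor of basal cells, was picked out after its values were seen, and like Krt5 it was highest in soy 147 (8.98), while its lowest array was soy 159 (3.94).

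Of 25 other smooth muscle genes 21 had a probe set and 16 were tested, and 0 passed in limma. None was at an unadjusted p under 0.05, where 4.55% of all tested probe sets were. Their differences were positive for 10 and negative for 11, with a median of -0.0084. Smtn, an actin-associated protein of contractile smooth muscle, averaged 8.26 ± 0.25 with casein and 8.62 ± 0.31 with soy (SD, n = 5 each), a difference of 0.36 with an adjusted p of 0.98 in limma. Slmap, a membrane protein of muscle, differed by -0.12, Csrp1, a LIM protein, by -0.17 and Cald1, caldesmon, by 0.11. The mean of these 21 genes moved by 0.49 over the arrays, from 8.85 in soy 159 to 9.34 in soy 157. In casein 6 it was 9.22, above the average array, although the mean of the 5 contractile genes was at its lowest there. That mean hid genes going both ways, since 6 of the 21 were at their lowest in casein 6 and 4 at their highest. In soy 159, 5 of the 21 were lowest, among them Actg2 and Tpm2, and 0 were highest. Des, Synpo2 and Casq2, which skeletal muscle also expresses, were highest in casein 6 and were picked out after their values were seen.

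In the marker lists of other cell types 0 genes passed between the diets in limma either. At an unadjusted p under 0.05 there were 1 pericyte, 1 skeletal muscle and 1 fibroblast gene, where 4.55% of all tested probe sets were called. The skeletal muscle gene was Myh1, which differed by -0.26, while 18 of the 19 measured genes of that list were higher with soy. Myh1 was read by the brightest of 5 probe sets, which stayed between 10.59 and 11.18 on all arrays, a 1.5-fold range. Every other measured gene of that list spanned at least 55.7-fold, so this probe set did not follow the muscle signal. The lists held the 7 luminal, 9 endothelial, 10 pericyte, 4 epidermis, 14 skeletal muscle, 11 lymph node, 9 adipocyte and 10 fibroblast genes that were tested. Epcam, the epithelial adhesion molecule, differed by -1.17 (SE 1.08) and Krt8 by -0.75 (SE 0.75). Elf3, an epithelial transcription factor, differed by -0.14 and Krt19 by -0.41. Among vessel genes, Kdr, the main VEGF receptor, differed by -0.27, Cldn5, the endothelial claudin, by 0.29, Vwf by 0.25 and Pecam1 by 0.22. Rgs5, a pericyte regulator of G protein signalling, differed by -0.31, Cspg4 by -0.29, Pdgfrb by -0.21 and Mcam by 0.082. These 12 luminal, endothelial and pericyte genes all had an adjusted p of at least 0.98 in limma.

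The 3 probe sets naming Acta2 with Actc1 behaved unlike the Acta2 probe set. The first had a linear signal of 1343.4 in casein 6 and 1212.8 in soy 157. Soy 149 read 565.5, soy 147 read 354.8 and the other 6 arrays 136.6 to 158.1. These 4 arrays were the ones with high skeletal muscle markers, whose summed signal ran from 3637.4 to 181984.8 in casein arrays and from 3138.2 to 192852.6 in soy arrays. The Acta2 probe set, in contrast, was at its casein minimum in casein 6.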

How the data were processed

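Total RNA from whole mammary glands was made into biotin-labelled cRNA and hybridised to 1-colour arrays, per the labels. The authors deposited a table of probe set intensity, the MAS5 signal on a linear scale, per the submitters' processing notes, and the MAS5 version is not given in the sources used here. The 2% trimmed mean was 500.1 on every array, so the deposited scaling was kept. Detection calls were not used here, and the number of arrays limits the precision, with a median SE of 0.144 (log2). Any 2 arrays had a Spearman correlation of 0.924 to 0.983, and no columns were identical. The actin 3' to 5' signal ratio was 1.22 to 1.57.

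A floor of 1 was applied before taking log2. Of 15923 probe sets 57 controls were left out, and 12783 of the rest had 1 gene symbol, 312 several and 2771 none. Probe sets at or above the 40th percentile of mean log2 signal (7.47) were fitted by lmFit and trended eBayes (limma 3.58.1, R 4.3.3; two-sided p-values, Benjamini-Hochberg adjusted over the 9520). Single values had exact permutation tests over 252 assignments of arrays, whose smallest two-sided p is 0.0079. Correlations had 100000 permutations. Where a gene of a marker list had several probe sets, the brightest stood for it.

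The genes named were every gene of the list, the 10 most correlated with Krt5 and with the contractile genes, and up to 4 tested genes of smallest p per marker list. The genes, lists and rules were chosen with earlier results of these data known. The fit was tested on simulated data. Alternatives were quantile normalization, median centring, no filter or a 60th percentile filter, an offset of 16, no trend, array weights, the actin ratio as a covariate, the mean of probe sets and leaving out each array. Marker means as covariates and the alternatives to the correlations were added after seeing the data.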

Additional observations from a re-analysis of the deposited data

Results flagged for a closer look

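Within each diet the lowest and the highest of 5 arrays were set against the others for the 9 measured genes and the marker lists, by the gap to the nearest array divided by the range, with 0.71 as the 95% critical value. Chance flags about 1 in 20 independent groups, and 10 values in 42 groups lay above it. The groups share the same arrays and the lists were chosen with earlier results known, so this rate is no test of the count. Among the genes, Myh11 was far below the other casein arrays in casein 6 (0.772, log2 signal 9.77) and far below the other soy arrays in soy 159 (0.747, 9.86). Tagln was far below in casein 6 (0.802, 8.67) and Mylk in soy 159 (0.726, 9.99). The same arrays had the lowest luminal markers.

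Among the marker means, casein 6 was low for lymph node genes (0.903, mean 6.59), high for skeletal muscle genes (0.785, 12.95) and low for epidermis genes (0.723, 6.35). The epidermis gap was small, since casein means ran only from 6.35 to 6.54 and soy 159 was lower at 6.23. Soy 149 stood apart for lymph node genes (0.781) and endothelial genes (0.744). Soy 147 stood apart for epidermis genes (0.726), with a mean of 8.90.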

How the results depend on the processing

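No paired analysis was possible because the diets share no replicate numbers. In the limma fits, 0 probe sets passed in the main setting and under each of the 23 alternatives, with 272 to 843 at an unadjusted p under 0.05 and a smallest adjusted p of 0.234 to 1. The sign of the small differences was not stable. Over the left-out arrays the soy minus casein difference ran from -0.75 to 0.52 for Krt5, from -0.99 to 0.56 for Krt14, from -0.35 to 0.56 for Trim29, from -0.44 to 0.047 for Cnn1, from -0.063 to 0.17 for Myh11, from -0.37 to 0.020 for Mylk and from -0.34 to 0.13 for Tagln. It kept its sign for Acta2 (-0.36 to -0.039) and Oxtr (-2.19 to -1.39). With the luminal mean as a covariate Krt5 was 0.48, Krt14 0.60, Cnn1 0.045 and Tagln 0.17; with the muscle mean Krt5 was 0.053, Krt14 0.21 and Tagln 0.24; with the epidermis mean Trim29 was -0.47 and Myh11 -0.00061. Tagln was 0.015 after quantile normalization, Myh11 -0.097 with array weights and Krt5 0.048 with the actin ratio. The cause of these turns was not tested. The medians ran from -1.05 to 0.53 over the basal genes and from -0.36 to 0.047 over the contractile genes. Of 21 correlations 16 passed, 7 to 16 over the left-out arrays (7 without casein 6 and 7 without soy 159), and 9 by Spearman.

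Signals near or under the filter are imprecise without detection calls, which limits Krt14 and Oxtr most. Krt17 was not measured by the rule used. Median differences between the scalings were under 0.1.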
